A study of Homo sapiens with 9 samples.

Results

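The genes described here build the contacts between neighbouring epithelial cells: cadherins, claudins, and the plaque and membrane proteins of tight junctions and desmosomes. They were chosen by symbol on a microarray of MDA-MB-231 cells, a triple-negative breast cancer line, treated with the BET bromodomain inhibitor JQ1. The set holds every row whose symbol is CDH, CLDN or TJP followed by a number, and 14 further named genes, among them EPCAM, OCLN, DSP and JUP. It came to 39 of the 14884 genes measured under a symbol: 24 claudins, 7 desmosomal genes, 4 of the tight junction plaque with occludin, 2 cadherins outside the desmosome (CDH23 and CDH26), EPCAM and MPZL3. CDH1, CDH2, CTNNB1, CTNND1 and F11R fit the choice but were not among the rows with a symbol and were not analysed here, so the classical adherens junction is all but missing from what follows.

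RNA was measured in 3 control samples with no agent at time 0, in 3 samples given 500 nM JQ1 for 12 h and in 3 given 500 nM JQ1 for 24 h, each on its own Human Gene 2.0 ST array. All 9 came from the same line in the same medium. No vehicle is named for the controls and they have a single time, so JQ1, solvent and time in culture cannot be told apart. Whether the replicates were separate cultures is not stated, so the p-values cover the scatter among these arrays alone, and that scatter may be technical. The array values are log2, each gene is compared with itself across arrays, and the 3 arrays per group limit the precision. RNA came from whole cultures, so fewer cells expressing a gene and less RNA of it per cell cannot be told apart.

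Tight junctions seal the space between epithelial cells. Claudins and occludin span the membrane there, and the TJP (ZO) proteins and cingulin tie them to actin. Desmosomes rivet cells together: the desmosomal cadherins DSC and DSG bind across the gap, plakoglobin (JUP) and the plakophilins hold their tails, and desmoplakin (DSP) anchors keratin filaments. Mesenchymal-type breast cancer lines such as MDA-MB-231 are known for weak epithelial junctions, and the repressors of the ZEB and SNAI families are known to bind E-boxes in junction gene promoters.

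The third control array stood apart from the others. Over all genes, the differences between controls 1 and 2 had an SD of 0.15 log2, while control 3 differed from them with SDs of 0.41 in each case, against 0.41 to 0.43 for the treated arrays. For the 39 junction genes these SDs were 0.13, 0.60 and 0.60, and the SDs between control 3 and the treated arrays ran from 0.39 to 0.49. In size, 9 of the 39 junction genes (23.1%) differed by at least 0.5 between control 3 and the mean of controls 1 and 2, against 15.1% of all genes. Results that rest on the controls are therefore given with and without control 3. The 6 proliferation markers had a mean of 8.97 and 8.98 in controls 1 and 2 and 9.46 in control 3, of 8.84 to 9.03 in the 12 h arrays, and of 8.14, 8.70 and 7.99 in the 24 h arrays; their part in the junction results was not tested.

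Of markers of the line, VIM ran from 10.23 to 10.69, ESR1 from 4.81 to 5.17, PGR from 3.93 to 4.32 and GRHL2 from 4.49 to 4.59 over the 9 arrays; ERBB2 was not analysed here. Of 10 markers taken as absent from such a line 8 were measured, ESRP1 and EPCAM among them. Their mean was 4.97 in controls 1 and 2, 4.67 in control 3, 4.65 to 4.74 at 12 h and 4.70 to 4.77 at 24 h. The place of control 3 in that mean was not shared by all the genes. Control 3 was above the mean of controls 1 and 2 for 2 genes and below it for 4, with a median difference of -0.004. ESRP1 read 5.48 and 5.68 in controls 1 and 2 and 3.48 in control 3. EPCAM read 6.45 in control 3, between its values in controls 1 and 2 (6.49 and 6.37). Detection calls were not used, so a low value cannot be read as absence. The markers of other cell types are given as mean log2 level of each list. The 5 measured of 7 endothelial markers ran from 4.67 to 4.80 in controls, 4.66 to 4.85 at 12 h and 4.70 to 4.80 at 24 h. The 3 measured of 6 leukocyte markers ran from 6.53 to 6.62, 6.57 to 6.59 and 6.52 to 6.73, the 2 measured of 6 fibroblast markers from 3.14 to 3.18, 3.17 to 3.19 and 3.16 to 3.19, the 3 measured of 5 basal epithelial markers from 4.28 to 4.31, 4.22 to 4.33 and 4.25 to 4.38, and the 7 measured of 9 luminal markers from 6.20 to 6.26, 6.15 to 6.33 and 6.17 to 6.36. Single epithelial markers were called. KRT18 rose at both times (log2 0.61 and 0.61, limma adjusted p = 0.0301 and 0.0224). KRT8 and KRT19 rose at 24 h (0.39 and 0.97, limma adjusted p = 0.0426 and 0.0489, and for KRT19 0.051 without control 3). GATA3 fell at both times (-0.38 and -0.41, limma adjusted p = 0.0297 and 0.0171). Each of these calls was lost without control 2, and most also without other arrays. With 1 array left out the limma adjusted p reached 0.108 at 12 h and 0.0806 at 24 h for KRT18. At 24 h it reached 0.146 for KRT8 and 0.173 for KRT19, and for GATA3 0.103 at 12 h and 0.0608 at 24 h. The part of these markers in the junction results was not tested.

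With all arrays, few of the junction genes differed between treated and control arrays, and not in a common direction. Without control 3 most calls were lower: 9 of 10 at 12 h and 8 of 9 at 24 h. Of all genes 10.5% and 11.3% were called lower in that fit. MPZL3, an adhesion protein of the immunoglobulin superfamily, and DSC2, a desmosomal cadherin, fell at both times. JUP, which encodes plakoglobin, rose at both times. EPCAM, the epithelial adhesion molecule used as a carcinoma marker, fell slightly at 12 h. A gene is said to have risen or fallen, or is called, where its adjusted p is under 0.05 in a limma fit over all 14884 genes.

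At 12 h 4 of 39 junction genes were called (10.3%), 1 higher and 3 lower, where 7.93% of all genes were called, 3.54% higher and 4.39% lower. At 24 h 3 of 39 (7.69%) were called, 1 higher and 2 lower, where 11.5% of all genes were, 5.17% higher and 6.34% lower. These shares lie near the background of the array. They include MPZL3, which entered the set with its fall in these data already known, as do the shares without control 3 below. The median log2 difference of the 39 was -0.03 at 12 h and 0.00 at 24 h, beside medians of 0.01 and 0.01 over all genes. Groups of 3 did not overlap for 6 of 39 at 12 h (15.4%, against 22.2% of all genes) and for 11 of 39 at 24 h (28.2%, against 26.1%). Without control 3 the calls were 10 of 39 at 12 h (25.6%) and 9 of 39 at 24 h (23.1%), where 20.1% and 20.9% of all genes were called. Of the 10, 1 was higher and 9 lower (9.57% and 10.5% of all genes), and of the 9, 1 was higher and 8 lower (9.61% and 11.3% of all genes). The genes added without it at both times were CLDN1, CLDN7, CLDN15, DSG2, DSP and TJP1, all lower, while EPCAM was called only at 12 h. Both comparisons use the same controls.

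**Figure D1:**
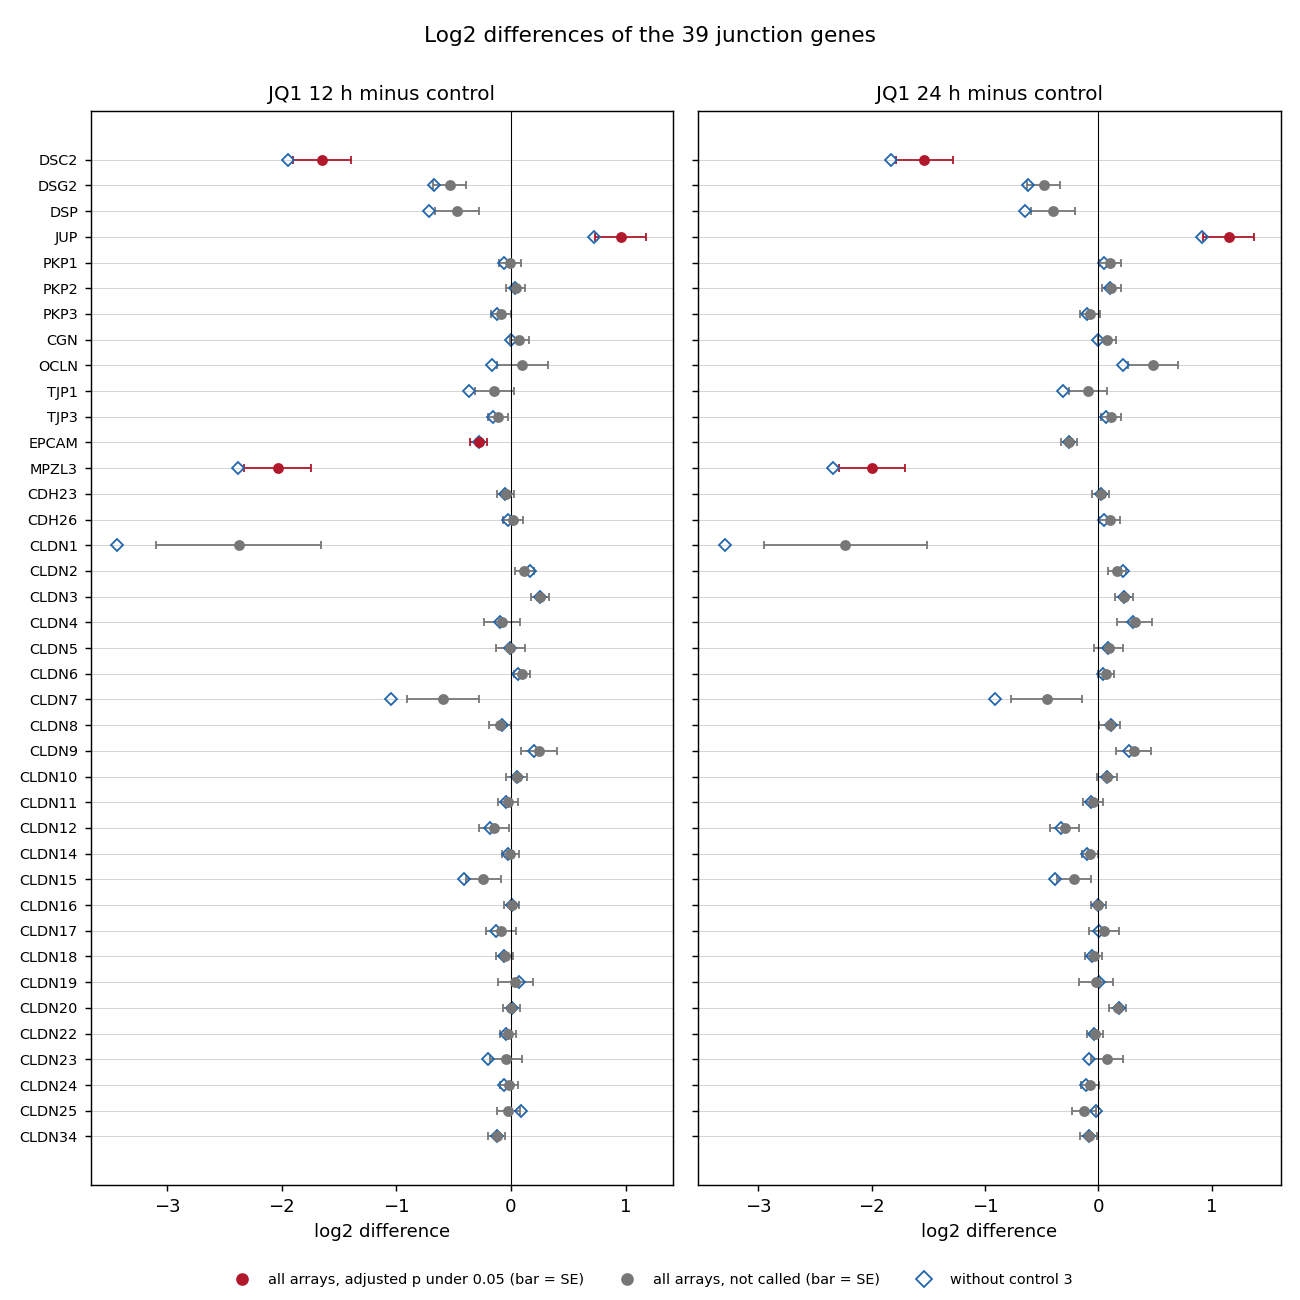
Log2 difference from control of each of the 39 junction genes at 12 h (left) and 24 h (right). Circles with SE bars use all arrays, red where called and grey where not; open diamonds leave out control 3. DSC2 and MPZL3 lie far left and JUP right in both panels, CLDN1 moves from -2.37 to -3.44 at 12 h without control 3, and most claudins lie near 0.

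MPZL3 stood at 7.93, 7.99 and 6.93 in controls 1, 2 and 3, at 5.11, 5.81 and 5.83 after 12 h and at 5.84, 5.59 and 5.44 after 24 h. Every treated array was below every control, and control 3 was the lowest control. The fall was 4.10-fold at 12 h (log2 -2.03, SE 0.29, adjusted p = 0.00455) and 3.98-fold at 24 h (log2 -1.99, SE 0.29, adjusted p = 0.00345). It held whichever array was left out. Without control 3 it was 5.19-fold and 5.05-fold. MPZL3 entered the set with its fall in these data already known, so its presence here is no independent evidence.

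Of the 7 desmosomal genes, DSC2 fell and JUP rose at both times (2 of 7, where 7.93% of all genes were called at 12 h and 11.5% at 24 h). DSG2 and DSP missed the threshold with all arrays, and the 3 plakophilins did not pass the test in either comparison. The plot of members by array shows 5 of these 7 genes.

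**Figure D2:**
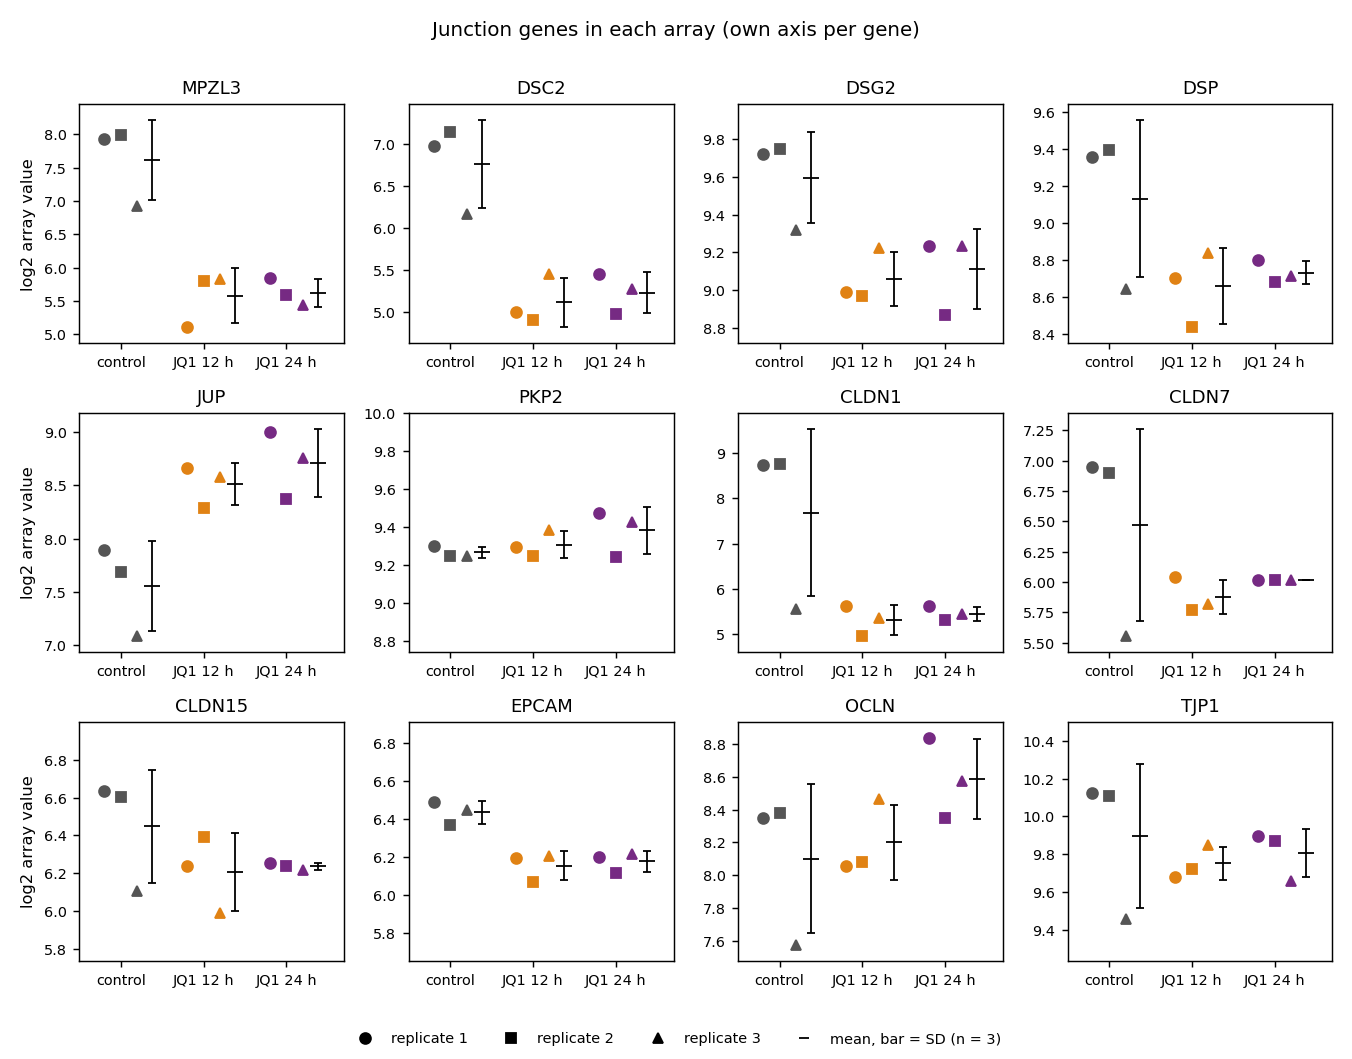
Log2 array value of 12 junction genes in each array, with an axis of its own for each gene. Circles, squares and triangles are replicates 1, 2 and 3, and the horizontal mark and bar give the mean and SD of 3 arrays. The triangle of the controls lies below the other 2 controls for MPZL3, DSC2, DSG2, DSP, JUP, CLDN1, CLDN7, CLDN15, OCLN and TJP1. For EPCAM it lies between them.

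DSC2 read 6.98, 7.15 and 6.17 in the controls, 4.99, 4.90 and 5.45 at 12 h and 5.45, 4.97 and 5.28 at 24 h. All 6 treated values were below the lowest control. The difference was 3.14-fold at 12 h (log2 -1.65, SE 0.25, adjusted p = 0.00577) and 2.89-fold at 24 h (log2 -1.53, SE 0.25, adjusted p = 0.00608), and no left-out array removed the call. Without control 3 it was 3.86-fold and 3.56-fold.

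JUP, which binds the tails of desmosomal and classical cadherins, read 7.90, 7.68 and 7.09 in the controls, 8.67, 8.29 and 8.58 at 12 h and 9.001, 8.37 and 8.75 at 24 h. The groups did not overlap, and control 3 was the array farthest from the treated ones. The rise was 1.94-fold at 12 h (log2 0.96, SE 0.22, adjusted p = 0.0326) and 2.22-fold at 24 h (log2 1.15, SE 0.22, adjusted p = 0.0117). It was less firm than the falls of DSC2 and MPZL3. The 12 h call was lost without control 2, any of the 12 h arrays or JQ1 24 h replicate 3 (adjusted p up to 0.117 in limma), and the 24 h call without JQ1 24 h replicate 1 or 3 (up to 0.0535). Without control 3 it was called at both times, at 1.65-fold and 1.89-fold.

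DSG2, the other desmosomal cadherin of the set, read 9.72, 9.75 and 9.32 in the controls, 8.99, 8.97 and 9.22 at 12 h and 9.24, 8.87 and 9.24 at 24 h. The treated arrays were below all controls, by a small margin for control 3. Its log2 difference was -0.53 (SE 0.15, limma adjusted p = 0.0583) at 12 h and -0.48 (SE 0.15, limma adjusted p = 0.0678) at 24 h. Without control 3 these were -0.67 (adjusted p = 0.00508) and -0.62 (adjusted p = 0.00763), and without JQ1 24 h replicate 2 the 12 h difference was also called.

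DSP read 9.36, 9.39 and 8.64 in the controls, 8.70, 8.44 and 8.84 at 12 h and 8.80, 8.68 and 8.71 at 24 h. Control 3 lay within the treated values and controls 1 and 2 above all of them. The log2 difference was -0.47 (SE 0.19, limma adjusted p = 0.185) at 12 h and -0.40 (SE 0.19, limma adjusted p = 0.237) at 24 h, and -0.72 and -0.64 without control 3 (adjusted p = 0.00195 and 0.00339).

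The plakophilins, armadillo proteins of the desmosomal plaque, varied little. PKP2 read 9.30, 9.25 and 9.25 in the controls, 9.29, 9.25 and 9.38 at 12 h and 9.48, 9.24 and 9.43 at 24 h. The differences of PKP1, PKP2 and PKP3 ran from -0.09 to 0.04 at 12 h and from -0.07 to 0.12 at 24 h. Their 95% intervals reached from -0.29 to 0.23 and from -0.27 to 0.32.

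The 7 desmosomal cadherin genes lie side by side on a chromosome arm in the order DSC3, DSC2, DSC1, DSG1, DSG4, DSG3 and DSG2, among protein-coding genes of the RefSeq table of GRCh38.p14. With all arrays DSC2 was the 1 gene of the cluster called at each time, and without control 3 DSC2 and DSG2 were. The other 5, which are not members of the set, differed from control by -0.13 to 0.08 at 12 h and by -0.11 to 0.11 at 24 h. These 5 read low, between 3.02 and 4.46 over the 9 arrays, where the median of all gene means was 6.13. At such levels a fall may not be visible, so they cannot be read as unchanged neighbours. None of the 5 passed the limma test, and 0 of 5 had an unadjusted p under 0.05. Their 95% intervals together spanned -0.36 to 0.27 and -0.33 to 0.30.

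The 250 bases before the start of DSC2, DSG2, DSP and JUP are printed because DSC2 and JUP were called in opposite directions and DSG2 and DSP were called without control 3. The sequences are those of RefSeq on GRCh38.p14, 5′ to 3′ on the strand of the gene; for DSC2 and JUP, which have 2 listed starts each, the one listed first is shown. Capitals mark matches to CAGGTG on either strand (read as CACCTG on the other), the E-box that ZEB and SNAI repressors are known to bind. Also searched on both strands were TGANTCA, the AP-1 motif, and ACCNGTT, the core of the grainyhead motif, which had no match in these windows. The windows are chr18:31102422-31102671, minus strand; chr18:31497927-31498176, plus strand; chr6:7541421-7541670, plus strand; and chr17:41786712-41786961, minus strand.
DSC2: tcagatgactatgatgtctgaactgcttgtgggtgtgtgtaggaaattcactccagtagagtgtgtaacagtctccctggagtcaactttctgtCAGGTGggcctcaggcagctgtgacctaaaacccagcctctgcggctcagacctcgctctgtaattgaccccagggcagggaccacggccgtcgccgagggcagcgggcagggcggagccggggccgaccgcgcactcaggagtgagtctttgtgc
DSG2: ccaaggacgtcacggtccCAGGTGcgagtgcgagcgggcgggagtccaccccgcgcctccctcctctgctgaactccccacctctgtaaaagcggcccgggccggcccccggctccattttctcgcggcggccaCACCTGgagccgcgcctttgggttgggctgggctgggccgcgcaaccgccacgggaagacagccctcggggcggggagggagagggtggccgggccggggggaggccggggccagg
DSP: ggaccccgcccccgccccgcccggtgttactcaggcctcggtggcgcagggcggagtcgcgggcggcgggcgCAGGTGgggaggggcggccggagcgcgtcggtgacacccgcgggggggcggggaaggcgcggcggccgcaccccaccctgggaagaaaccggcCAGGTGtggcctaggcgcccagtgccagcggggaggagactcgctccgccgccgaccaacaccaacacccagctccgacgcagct
JUP: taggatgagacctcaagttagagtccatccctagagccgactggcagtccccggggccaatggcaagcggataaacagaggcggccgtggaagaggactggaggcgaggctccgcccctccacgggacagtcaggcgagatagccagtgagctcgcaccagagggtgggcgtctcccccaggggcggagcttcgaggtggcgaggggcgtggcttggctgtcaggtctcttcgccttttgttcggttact

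DSC2 had 1 match to CAGGTG, 156 to 151 bases before the start. DSG2 had 2 and DSP had 2, and the JUP window had none. Of the 39 junction genes 30 had promoter entries. In the first-listed windows 7 of the 30 held CAGGTG (23.3%): CLDN18, CLDN25, DSC2, DSG2, DSP, OCLN and TJP1. Counting every listed start, 13 of 48 windows of the junction genes held it (27.1%), beside 17.5% of all 35116 promoter windows of this length. TGANTCA was in 4 of the 30 first-listed windows (CLDN2, CLDN4, CLDN15 and CLDN16). With every listed start it was in 4 of 48 (8.33%), beside 6.57% of all windows. ACCNGTT was in 2 of the 30 (CGN and CLDN4) and in 3 of the 48 (6.25%), beside 5.37% of all windows. A match describes letters only and does not show binding.

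Of the 24 claudins, 0 were called at either time in limma with all arrays, where 7.93% and 11.5% of all genes were. An unadjusted p under 0.05 was found for 2 claudins at 12 h and 4 at 24 h, beside 3208 and 3725 of all 14884 genes. Their median log2 difference was -0.02 at 12 h and -0.01 at 24 h, beside 0.01 and 0.01 over all genes. The value of CLDN1 depended on which controls were used.

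CLDN1, a barrier-forming claudin that is widely expressed in epithelia, read 8.73 and 8.77 in controls 1 and 2 but 5.57 in control 3. It read 5.62, 4.96 and 5.36 at 12 h and 5.62, 5.31 and 5.44 at 24 h, so control 3 lay among the treated arrays. With all arrays the log2 difference was -2.37 (SE 0.72, limma adjusted p = 0.0825) at 12 h and -2.23 (SE 0.72, limma adjusted p = 0.0821) at 24 h. Without control 3 CLDN1 was 10.8-fold lower at 12 h (log2 -3.44, SE 0.17, adjusted p = 3.65e-06) and 9.81-fold lower at 24 h (log2 -3.29, SE 0.17, adjusted p = 4e-06).

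CLDN7, a claudin known to complex with EPCAM, showed the same split. It read 6.95, 6.90 and 5.55 in the controls, 6.04, 5.77 and 5.82 at 12 h and 6.02 on each 24 h array. Control 3 was below every treated array. The 24 h arrays carried exactly the same value and say little about spread, which limits the p-values that follow. The log2 difference was -0.59 (SE 0.31, limma adjusted p = 0.33) at 12 h and -0.45 (SE 0.31, limma adjusted p = 0.444) at 24 h, and -1.05 and -0.91 without control 3 (adjusted p = 7.21e-05 and 0.000164).

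CLDN15, a pore-forming claudin of the intestine, read 6.64, 6.60 and 6.10 in the controls, 6.24, 6.39 and 5.99 at 12 h and 6.25, 6.24 and 6.22 at 24 h. It was called without control 3, at -0.41 (adjusted p = 0.0274) and -0.38 (adjusted p = 0.0366), and not with all arrays.

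The other 21 claudins differed from control by -0.15 to 0.25 at 12 h and by -0.30 to 0.32 at 24 h, and 0 of them were called by limma with or without control 3. With all arrays 1 had an unadjusted p under 0.05 at 12 h and 3 at 24 h. Their 95% intervals together reached from -0.44 to 0.60 at 12 h and from -0.59 to 0.67 at 24 h. They are CLDN2, CLDN3, CLDN4, CLDN5, CLDN6, CLDN8, CLDN9, CLDN10, CLDN11, CLDN12, CLDN14, CLDN16, CLDN17, CLDN18, CLDN19, CLDN20, CLDN22, CLDN23, CLDN24, CLDN25 and CLDN34. In 8 of them, CLDN2, CLDN9, CLDN10, CLDN14, CLDN16, CLDN22, CLDN24 and CLDN34, at least 4 arrays carried exactly the same value, 7 arrays in the case of CLDN16 and CLDN22, and in those rows the arrays say little about spread. Among the 21, only CLDN3, CLDN5, CLDN9, CLDN19 and CLDN23 had a mean above the median of all gene means, 6.13. The lowest was CLDN17, with a mean of 3.19. In rows that read this low a fall may not be visible, so a difference near 0 does not show an unaffected gene.

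CLDN3 and CLDN4, receptors for a bacterial enterotoxin, had positive differences at 24 h. CLDN3 read 7.12, 7.11 and 7.12 in the controls, 7.48, 7.35 and 7.27 at 12 h and 7.41, 7.30 and 7.32 at 24 h. All treated values were above all controls, at log2 0.25 (SE 0.08, limma adjusted p = 0.0796) and 0.23 (SE 0.08, limma adjusted p = 0.0896). CLDN4 read 5.78, 5.79 and 5.73 in the controls, 5.77, 5.55 and 5.76 at 12 h and 6.23, 5.69 and 6.35 at 24 h. The 24 h arrays split, with replicates 1 and 3 above the controls and replicate 2 below them. It was called at 24 h only without JQ1 24 h replicate 2 (log2 0.52, adjusted p = 0.0142).

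The CLDN1 promoter window is shown because CLDN1 had the widest difference of the set. It holds the 250 bases before the start (chr3:190322447-190322696, minus strand, GRCh38.p14, RefSeq), with no match to any of the 3 motifs and therefore no capitals.
CLDN1: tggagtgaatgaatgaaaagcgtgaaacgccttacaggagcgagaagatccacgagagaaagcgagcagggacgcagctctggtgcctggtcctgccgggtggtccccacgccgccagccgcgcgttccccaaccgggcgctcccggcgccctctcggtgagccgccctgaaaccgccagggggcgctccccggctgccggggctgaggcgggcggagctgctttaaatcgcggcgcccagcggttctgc

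The tight junction plaque genes and occludin were not called with all arrays. OCLN, a membrane protein of the tight junction strand, read 8.35, 8.38 and 7.58 in the controls, 8.06, 8.08 and 8.46 at 12 h and 8.83, 8.35 and 8.57 at 24 h. Groups overlapped at both times (log2 0.10 and 0.48, SE 0.22, limma adjusted p = 0.876 and 0.218). Without control 3 the 12 h difference was of the other sign, -0.16, and the 24 h difference was 0.22, and neither was called (limma adjusted p = 0.605 and 0.419).

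TJP1, the scaffold ZO-1, read 10.12, 10.11 and 9.46 in the controls, 9.68, 9.72 and 9.85 at 12 h and 9.90, 9.87 and 9.66 at 24 h. Control 3 was below every treated array and the other controls above them. Its difference was -0.14 and -0.09 with all arrays (SE 0.17, limma adjusted p = 0.722 and 0.826) and -0.36 and -0.31 without control 3 (adjusted p = 0.0243 and 0.0483). TJP3 and CGN, the scaffold ZO-3 and cingulin, differed by -0.11 and 0.07 at 12 h and by 0.11 and 0.07 at 24 h, with overlapping groups at 12 h.

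EPCAM read 6.49, 6.37 and 6.45 in the controls, 6.19, 6.07 and 6.20 at 12 h and 6.20, 6.11 and 6.22 at 24 h. Here control 3 lay between the other controls and all treated arrays lay below. The fall at 12 h was 1.22-fold (log2 -0.28, SE 0.07, adjusted p = 0.0485), and the 24 h value of -0.26 (SE 0.07, limma adjusted p = 0.0519) lay just past the threshold. The 12 h call rested on all 8 arrays other than control 3, since it was lost with any 1 of them missing (limma adjusted p up to 0.166).

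CDH23 and CDH26, the remaining cadherins, ran from 5.13 to 5.36 and from 5.07 to 5.36 over the 9 arrays. Neither was called, with log2 differences of -0.05 and 0.02 at 12 h and 0.02 and 0.10 at 24 h. CDH23 is best known from the tip links of hair cells.

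**Figure D3:**
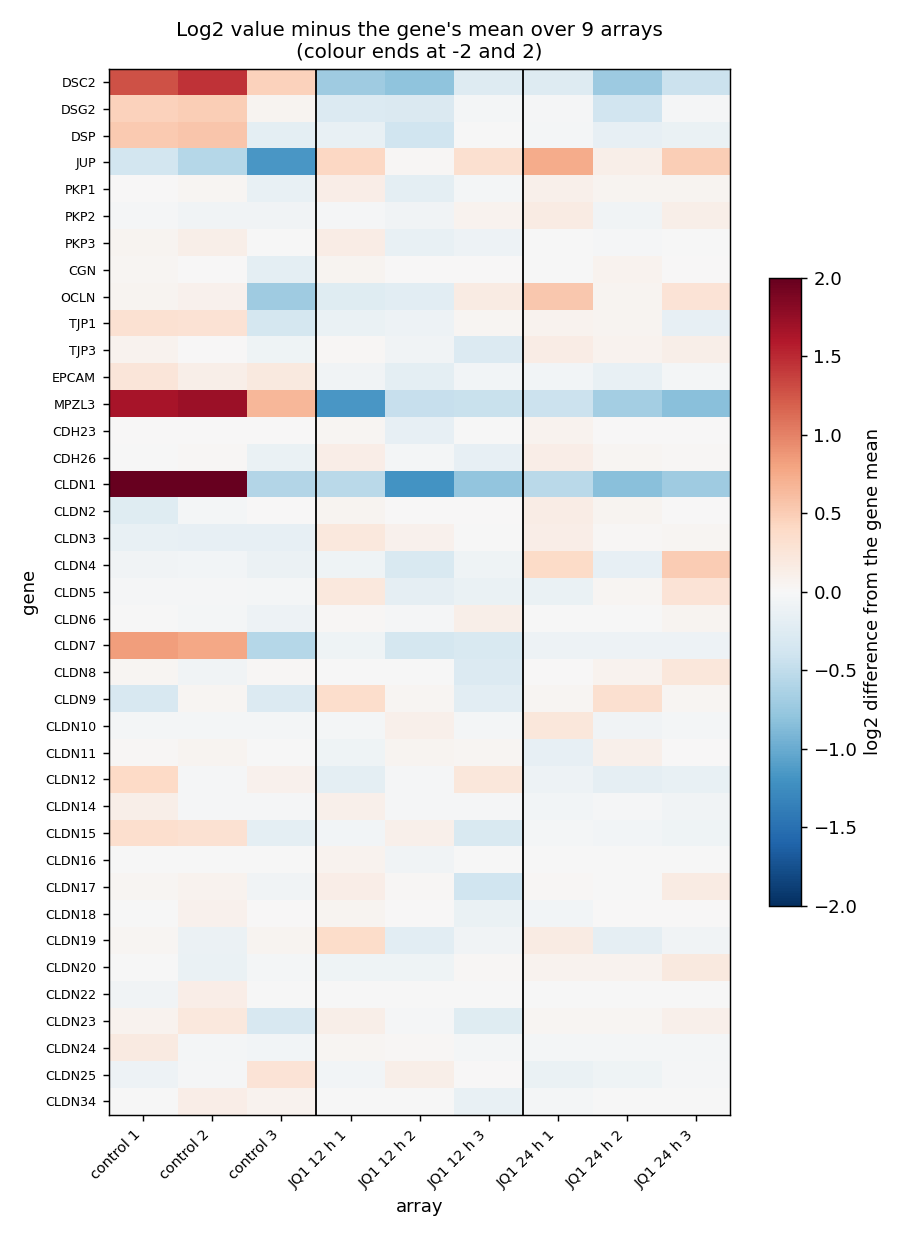
Log2 value of each junction gene in each of the 9 arrays minus its mean over the arrays, with red above and blue below that mean and colours ending at -2 and 2. Control 3 is blue where controls 1 and 2 are red for CLDN1, CLDN7 and DSP, pale red for DSC2 and MPZL3, and the deepest blue of its row for JUP.

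Across the genes with a difference of at least 0.4 between the treated arrays and controls 1 and 2, control 3 did not hold a fixed place. Expressed as the share of the distance from the mean of controls 1 and 2 to the mean of the 6 treated arrays, control 3 lay at 43.6% for MPZL3, 47.2% for DSC2, 64.2% for DSG2, 94.6% for CLDN1, 108% for DSP and 139.9% for CLDN7. For JUP it lay on the far side of the other controls, at -85.7%. Of these 7 genes, MPZL3, DSC2, DSG2 and JUP had control and treated groups that did not overlap with control 3 included, and CLDN1, CLDN7 and DSP had groups that did.

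From 12 h to 24 h the junction genes changed little. In the direct comparison 0 of 39 were called by limma, where 0.00672% of all genes were. An unadjusted p under 0.05 was found for 3 of 39, beside 995 of all 14884 genes. Groups did not overlap for 3 of 39 (7.69%: CLDN8, CLDN20 and TJP3), against 12.9% of all genes. Without control 3, 0 of 39 were called by limma, where 0.148% of all genes were called, 0.047% higher and 0.101% lower. Again 3 of 39 had an unadjusted p under 0.05, beside 1734 of all genes. The log2 differences ran from -0.15 (CLDN12) to 0.40 (CLDN4), and the lowest adjusted p was 0.69. For MPZL3 the difference was 0.04 with a 95% interval of -0.62 to 0.70, for DSC2 0.12 (-0.45 to 0.69) and for JUP 0.20 (-0.31 to 0.70), and those intervals leave room for changes of either sign.

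Other junction genes, from lists drawn up alongside the set, were sorted by the structure they belong to. Among partners of the desmosome and hemidesmosome 10 of 12 were measured. PLEC, which encodes plectin, links keratin filaments to hemidesmosomes and actin. It was the only one called, 1 of 10 with all arrays or without control 3, and was higher at both times. Of all genes 7.93% and 11.5% were called with all arrays, and 20.1% and 20.9% without control 3. PLEC read 8.37, 8.37 and 8.39 in the controls, 9.35, 9.23 and 9.22 at 12 h and 9.72, 9.62 and 9.63 at 24 h. The rise was 1.86-fold (log2 0.89, SE 0.07, adjusted p = 0.000299) and then 2.43-fold (log2 1.28, SE 0.07, adjusted p = 3.5e-05), with no overlap between control and treated arrays. DST, PKP4, PPL, EVPL and the 5 other desmosomal cadherins were not called.

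Of 30 tight junction and polarity partners 23 were measured, and 1 fell and 0 rose at 12 h, while 3 fell and 2 rose at 24 h, where 7.93% and 11.5% of all genes were called. MARVELD2, tricellulin, which seals the corners where 3 cells meet, read 6.12, 6.15 and 6.15 in the controls, 5.42, 5.61 and 5.74 at 12 h and 5.65, 5.26 and 5.42 at 24 h. It fell 1.46-fold at 12 h (log2 -0.55, SE 0.12, adjusted p = 0.0217) and 1.62-fold at 24 h (log2 -0.69, SE 0.12, adjusted p = 0.00613). The 24 h call survived the removal of each array. The 12 h call did not survive without replicate 1 or 2 of either the controls or the 12 h group (limma adjusted p up to 0.0766). LSR, the lipoprotein receptor that recruits tricellulin, fell at 24 h (log2 -0.68, adjusted p = 0.034). CLMP, an adhesion protein of the immunoglobulin superfamily, fell too (-0.80, adjusted p = 0.0431). LSR and CLMP each lost the call under 7 of the 9 left-out arrays (limma adjusted p up to 0.109 and 0.146), and the CLMP difference was -0.50 without control 3, where it was called. AMOTL2, an angiomotin, rose (0.47, adjusted p = 0.00481), as did the polarity gene PARD6A (0.49, adjusted p = 0.0249, lost without control 1 or JQ1 24 h replicate 1 or 3, up to 0.0928). Without control 3 the counts were 5 lower and 0 higher at 12 h and 6 lower and 2 higher at 24 h, where 20.1% and 20.9% of all genes were called. Among them was ESAM, lower at both times (log2 -1.21 and -0.84, limma adjusted p = 0.000104 and 0.000766). With all arrays it was not called (limma adjusted p = 0.143 and 0.438). ESAM read 9.96 and 9.89 in controls 1 and 2, 8.68 in control 3 and between 8.55 and 9.19 in the treated arrays.

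Of 17 adherens junction partners 9 were measured. At 12 h 0 were called by limma, with 2 at an unadjusted p under 0.05, and at 24 h 2 were, where 7.93% and 11.5% of all genes were called. At 24 h vinculin (VCL), the actin linker, rose (log2 0.55, adjusted p = 0.0267) and zyxin (ZYX) fell (log2 -0.37, adjusted p = 0.0422). The zyxin call needed all 8 arrays other than control 3 (limma adjusted p up to 0.141 with 1 of them missing), and vinculin was not called without control 1 or 2 or without the first or the third 24 h array (up to 0.0972). Without control 3, 3 were lower (AJUBA, LIMA1 and ZYX) and 1 higher (VCL) at 12 h, beside 20.1% of all genes called. At 24 h 2 were lower (LIMA1 and ZYX) and 1 higher (VCL), beside 20.9% of all genes called. From 12 h to 24 h AJUBA differed by log2 0.81, not called with all arrays (limma adjusted p = 0.452). Without control 3 it was called (limma adjusted p = 0.0311), 1 of the 9, where 0.148% of all genes were.

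Regulators known to set the expression of junction genes were called lower where they were called. Of 15 measured of 18, 1 fell and 0 rose at 12 h, and 4 fell and 0 rose at 24 h, where 4.39% and 6.34% of all genes fell. Without control 3, 4 were lower at 12 h (ZEB1, ZEB2, ESRP1 and KLF4) and 7 at 24 h (the same 4 with SNAI1, EHF and LEF1), and 0 were higher, where 10.5% and 11.3% of all genes were lower. ZEB2, a repressor of epithelial genes, was called at both times (log2 -0.32 and -0.34, SE 0.08, adjusted p = 0.0407 and 0.0241), but only control 3 could be removed with the 12 h call kept (limma adjusted p up to 0.146). At 24 h the call was lost without control 2 or JQ1 24 h replicate 2 or 3 (limma adjusted p up to 0.0935). ZEB1 (-0.46, adjusted p = 0.0416), SNAI1 (-0.81, adjusted p = 0.0423) and the Wnt effector LEF1 (-0.67, adjusted p = 0.0322) were called at 24 h. These 3 calls were each lost without control 1 and without JQ1 24 h replicate 1 or 3, among other arrays (adjusted p up to 0.149, 0.141 and 0.125). ESRP1, a splicing factor of epithelial cells, read 5.48 and 5.68 in controls 1 and 2, 3.48 in control 3 and between 3.54 and 3.76 in the treated arrays, so that control 3 lay below every treated array, as for CLDN7. It was not called with all arrays (log2 -1.26 and -1.22, limma adjusted p = 0.152 and 0.142) and was called without control 3 (-1.96 and -1.92, adjusted p = 4.08e-06 and 4.31e-06).

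**Figure D4:**
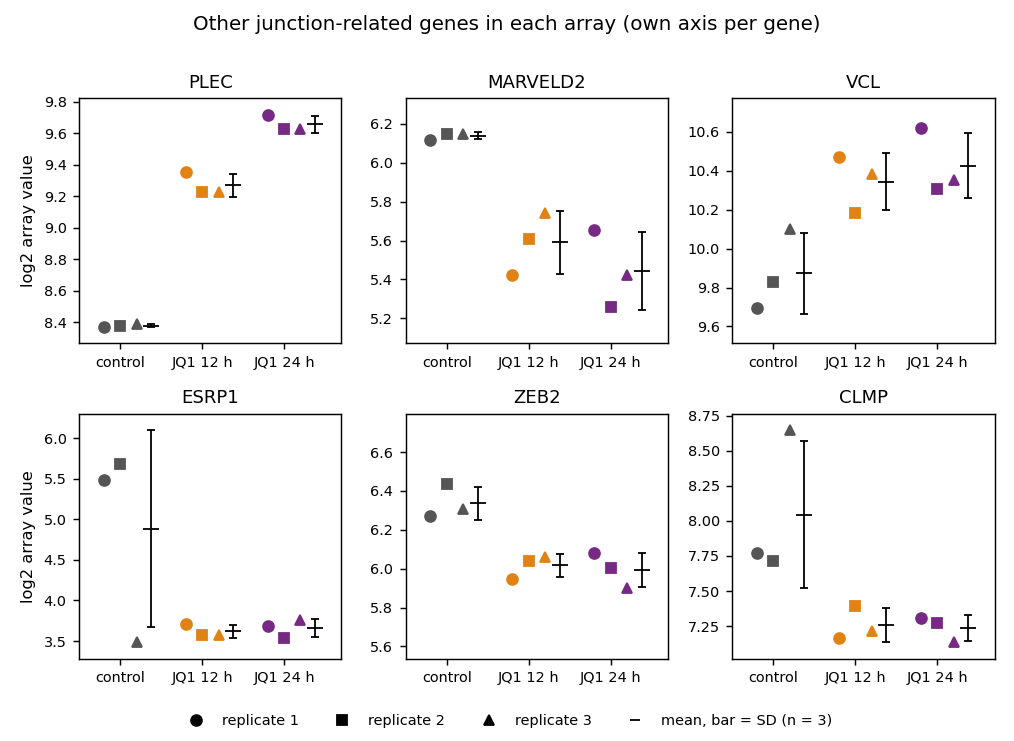
Log2 array value of 6 junction-related genes outside the set in each array, with an axis of its own for each gene. Symbols are replicates, and the mark and bar give the mean and SD of 3 arrays. PLEC is higher and MARVELD2 lower in every treated array than in every control, while ESRP1 in control 3 lies with the treated arrays.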

How the data were processed

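The authors deposited 1 table of log2 array values with 53617 rows and 9 columns, 1 per array. Its unit was read from the values (array medians between 4.92 and 4.96); Transcriptome Analysis Console was used per the submitters' processing notes, and background correction, normalization and probe summarisation are not given in the sources used here. Such near-equal medians remove any change in total RNA, so differences are relative to the other genes. Rows were named through the platform gene table: 16098 rows had 1 symbol, 0 had several and 37519 are unnamed. The row with the highest mean stood for each of 14884 genes; all 39 junction genes had 1 row.

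Group means were estimated from the 9 arrays together with limma 3.58.1 in R 4.3.3 (empirical Bayes without trend, no filter), with Benjamini-Hochberg adjustment over 14884 genes within each comparison, tested on simulated data first. Members and lists were chosen with earlier results of these data known. Values by array are given for members called in any comparison and for EPCAM, OCLN, TJP1, DSP and JUP. CLDN1, CLDN3, CLDN4, CLDN7, CLDN15, DSG2 and PKP2 were added after their values were seen. So were ESAM, ESRP1, GATA3, KRT8, KRT18 and KRT19, which are outside the set. Alternatives left out each array, averaged rows of a gene, dropped dim genes, quantile-normalized, used a variance trend, 2 groups only, array weights, a replicate block or all rows.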

Additional observations from a re-analysis of the deposited data

How the results depend on the processing

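With all arrays 4 junction genes were called at 12 h and 3 at 24 h, beside 1181 and 1714 of all 14884 genes. Leaving out 1 array at a time gave 2 to 10 calls at 12 h and 2 to 9 at 24 h, the highest without control 3. Over all genes it gave 543 to 2986 calls at 12 h and 786 to 3111 at 24 h, again the highest without control 3. Array weights, which gave control 3 a weight of 0.21, gave 11 and 10 junction genes, beside 3498 and 3764 of all genes. At 12 h 2 junction genes were called with only the 2 groups compared and 2 with all rows tested together, beside 577 and 696 of all genes. MPZL3 and DSC2 were called under every alternative in which they were tested, at both times; DSC2 was left out by the filter on dim genes, which kept 16 of 39. EPCAM at 12 h held under 4 of 17 alternatives and JUP under 10 of 17 at 12 h and 15 of 17 at 24 h. No call changed sign. Between 24 h and 12 h 0 junction genes were called under every alternative, beside 1 to 22 of all genes.

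Replicate numbers did not pair the arrays: correlations of deviations between arrays of the same number ran from -0.32 to 0.22, and 2 of 9 arrays correlated best with their own number. With the replicate block 3 junction genes were called at 12 h and 3 at 24 h, and 967 and 1478 of all genes in place of 1181 and 1714.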

Other observations

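Of 25 large and atypical cadherins 21 were measured; 1 rose at 12 h and 1 at 24 h, and 0 fell at either time, where 7.93% and 11.5% of all genes were called. Without control 3, 1 was higher at 12 h and 2 were at 24 h, where 20.1% and 20.9% of all genes were called. PCDH9, a protocadherin, read 4.26, 4.37 and 4.72 in the controls, 5.09, 5.06 and 5.15 at 12 h and 4.66, 4.60 and 4.57 at 24 h, so the 12 h arrays lay above all others. Its 12 h difference was log2 0.65 (SE 0.11, limma adjusted p = 0.00974) and its 24 h difference 0.16 (limma adjusted p = 0.464), or 0.29 without control 3 (limma adjusted p = 0.0247). The direct comparison of the times gave log2 -0.49 (limma adjusted p = 0.401), and was called without control 3 (adjusted p = 0.0464). Averaged over all its rows PCDH9 rose by 0.32 at 12 h (limma adjusted p = 0.041). CLSTN1, calsyntenin-1, rose at 24 h (log2 0.46, SE 0.08, limma adjusted p = 0.00752), and its 12 h difference was 0.12 (limma adjusted p = 0.485). FAT1, a giant protocadherin, read 8.98, 8.86 and 9.60 in the controls and 8.93, 9.47 and 8.93 at 24 h, and was not called.

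Of 16 gap junction and pannexin genes 3 were measured, all pannexins. At 24 h PANX1 differed by log2 -0.25 (SE 0.09, limma adjusted p = 0.0943), PANX3 by -0.29 (limma adjusted p = 0.0601) and PANX2 by -0.03 (limma adjusted p = 0.894). By limma 0 of 3 were called at either time, where 7.93% and 11.5% of all genes were. An unadjusted p under 0.05 was found for 0 at 12 h and 2 at 24 h, beside 3208 and 3725 of all 14884 genes.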
